A study of Mus musculus with 27 samples.

Results

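A set of 9 genes that white blood cells use to build and steer actin filaments was described in mouse epididymal adipose tissue (EAT): Wipf1, Was, Arpc1b, Coro1a, Hcls1, Dock2, Nckap1l, Fermt3 and Lcp1. They were matched by symbol in the probe annotation of the arrays, and each gene was read from the probe set annotated to it alone that had the highest mean over the 27 arrays. Of the 9 genes, 8 could be read in this way, among 18193 genes with such a probe set. Both Arpc1b probe sets are annotated to a further gene, Gm5637, as well, so no value is given for Arpc1b. The genes were selected on these same arrays, since Wipf1 was chosen because it was higher on the Western diet and lower with quercetin. The differences of the members between the Western diet and the other diets are therefore given as a description. Counts of their calls appear only in the section on processing and are not read as a result.

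Actin filaments push the cell edge forward when an immune cell crawls, engulfs a particle or grips a neighbour. The Arp2/3 complex starts new branches on existing filaments, and proteins of the WASP and WAVE families switch it on under the control of the small GTPases Cdc42 and Rac. Many cells carry broadly expressed versions of these proteins, whereas blood cells carry versions of their own, and the members are mainly of that second kind. Adipose tissue of obese mice is known for its macrophages, which gather round dying fat cells. In whole tissue, fewer cells of a type and less RNA per cell cannot be told apart.

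Male C57BL/6J mice, 5 weeks old at arrival and given 1 week to settle, received 1 of 3 diets for 18 weeks, with 9 mice and 9 arrays per diet. WQ mice ate a Western diet with 0.05% quercetin, a plant flavonol, WD mice ate that Western diet alone, with 39.9% of its energy as fat and 34.0% as sucrose, and control mice ate AIN93G. RNA of each mouse was hybridised to its own Affymetrix mouse genome array. The mice lived 3 to a cage and the cages are not given, so a shared cage cannot be separated from a diet, and p-values rest on the spread between mice.

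Some arrays had high signals of markers of neighbouring tissue. The adipocyte markers were high on every array, with a summed normalised signal of 50114 to 55057 in WQ mice, 50588 to 55653 in WD mice and 45133 to 56031 in control mice. In all, 9 arrays, 3 of WQ, 1 of WD and 5 of control mice, lay more than 2 log2 units above the median of all arrays in markers of testis, smooth muscle, or B cells and lymph node. Several of these arrays lay at an end of their diet for the members. Control replicate 3, with a mean log2 signal of 6.33 over 9 B cell and lymph node markers against 2.94 to 4.34 in the other control mice, was the highest control mouse for all 8 members. WQ replicate 3, with a mean of 6.66 over the testis markers, was the lowest WQ mouse for 7 members. Control replicate 4, with 6.27 over these and 12.03 over the smooth muscle markers, was the lowest control mouse for 6. Higher testis markers did not go with this each time, since control replicate 6, at 12.65, was lowest for 2 members and WQ replicate 5, at 8.52, for 0. Calls of the members and several r values are given with and without control replicate 3 or WQ replicate 3. The log2 ratio of the 3′ to the 5′ actin control probe set, used as a sign of RNA integrity, was 1.14 ± 0.19 in WQ mice, 0.79 ± 0.12 in WD mice and 1.11 ± 0.29 in control mice (SD, n = 9 each). Within diets it had r = -0.26 with the mean of the members. The same ratio for Gapdh was 0.19 ± 0.18 in WQ mice, -0.05 ± 0.14 in WD mice and 0.14 ± 0.24 in control mice (SD, n = 9 each). Its r with the mean of the members within diets had the other sign, at 0.20. The part of either ratio in the diet differences was not tested.

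The stretches of promoter below were chosen because they show a short sequence that several members share near their start site. They come from RefSeq (GRCm38.p6), which lists a promoter of 250 bases before and 50 bases after the start for 8 of the 9 members, 12 promoters in all, and for 6 of the 9 relatives described further on. The letters AGGAAGT, which hold the GGAA core that ETS proteins bind, were searched on both strands after the promoters had been read, as were the letters GAGGAA, which can overlap them. PU.1, made from Spi1, is the ETS protein known for switching on genes of macrophages. Capitals mark AGGAAGT, or ACTTCCT where it lies on the other strand, and all lines run 5′ to 3′ on the strand of the gene.
Wipf1: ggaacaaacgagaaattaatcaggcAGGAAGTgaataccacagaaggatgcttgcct
Was: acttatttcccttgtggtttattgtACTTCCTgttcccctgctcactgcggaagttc
Hcls1: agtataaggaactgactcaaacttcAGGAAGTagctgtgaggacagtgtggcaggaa
Dock2: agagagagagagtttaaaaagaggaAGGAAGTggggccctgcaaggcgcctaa
The Wipf1 stretch is chr2:73453910-73453966 on the minus strand, at 1 of 3 Wipf1 starts in the table. The Was stretch is chrX:8090484-8090540 on the minus strand, the Hcls1 stretch is chr16:36934899-36934955 on the plus strand, and the Dock2 stretch is chr11:34783882-34783934 on the minus strand. The match began 52 bases before the start in Wipf1, 24 in Was, 59 in Hcls1 and 4 in Dock2. With Arpc1b, 5 of 8 members and 1 of 6 relatives held the letters in at least 1 promoter, against 10.7% of the 27025 genes of the table. By promoter, 5 of 12 of the members and 1 of 8 of the relatives held them, against 9.35% of all 32851 promoters. The letters were picked because several members share them, so the higher share of the members follows from that choice and is not read as a result. GAGGAA was in at least 1 promoter of 4 of 8 members and of 1 of 6 relatives, against 31.3% of all genes. A match of letters is not a measured site, and nothing in these arrays tests binding.

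Wipf1 and Was work as a pair at the start of a branch. Was encodes WASP, the activator of the Arp2/3 complex in blood cells that is mutated in Wiskott-Aldrich syndrome, and Wipf1 encodes WIP, which binds WASP and keeps it from being degraded. Wipf1 had a lowest, median and highest normalised signal of 378, 474 and 578 in WQ mice, 526, 711 and 830.4 in WD mice, and 363, 399.6 and 599 in control mice. Of the 9 WQ mice, 7 were below every WD mouse, and 6 WD mice were above every control mouse. The WD mean was 0.69 ± 0.11 log2 units above control (SE, 1.61-fold) and the WQ mean was 0.55 ± 0.11 below WD (0.682-fold), which left WQ 0.14 ± 0.11 above control.

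Was had a lowest, median and highest normalised signal of 79.0, 119.8 and 223 in WQ mice, 134, 237 and 319 in WD mice, and 57.6, 84.3 and 186 in control mice. The lower 5 WQ mice lay below every WD mouse, while the upper WQ mice mixed with the WD mice. The WQ mean was 0.49 ± 0.23 log2 units above control (SE) and 0.74 ± 0.23 below WD, and the WD mean was 1.22 ± 0.23 above control (2.33-fold).

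**Figure D1:**
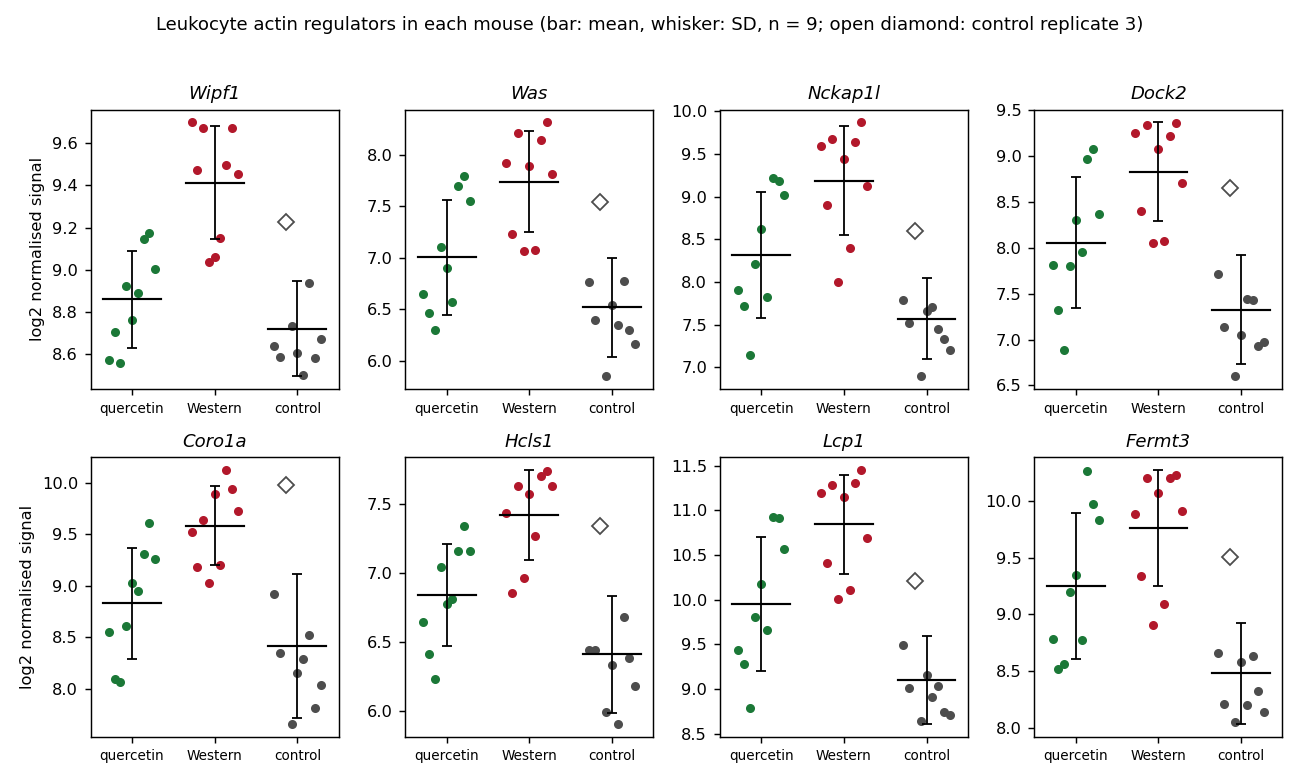
Log2 normalised signal (y axis) of the 8 measured members in every mouse, by diet (x axis: Western diet with quercetin, Western diet, control). Each point is 1 mouse, bars are means and whiskers SD (n = 9). Control replicate 3, the open diamond, is the highest control mouse in all 8 panels. With it, the Western and control mice overlap in every panel. Without it they do not overlap in any panel, where 2.41% of all genes show this, and the choice of the set used this comparison.

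Nckap1l and Dock2 belong to the Rac branch of the same machinery. Nckap1l encodes HEM-1, the blood cell subunit of the WAVE complex through which Rac switches on Arp2/3, and Dock2 encodes an exchange factor that loads Rac with GTP in leukocytes and is needed for lymphocyte migration in mice. Nckap1l ran over 141, 297 and 597 (lowest, median, highest signal) in WQ mice, 257, 695 and 937 in WD mice, and 119, 184 and 388 in control mice. Every control mouse was exceeded by 7 WD mice and also by 4 WQ mice, so the WQ mice spread over both ranges. The means differed by 1.61 ± 0.28 log2 units for WD over control (3.06-fold), 0.74 ± 0.28 for WQ over control, and -0.87 ± 0.28 for WQ over WD (0.548-fold).

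Dock2 signals were 118, 248 and 538 in WQ mice, 265, 539.7 and 657 in WD mice, and 96.9, 141 and 402 in control mice (lowest, median, highest). The median WQ mouse was below the lowest WD mouse, and 2 WQ mice were above every control mouse. WD lay 1.50 ± 0.27 log2 units above control (2.83-fold), WQ 0.73 ± 0.27 above control (1.65-fold), and WQ 0.77 ± 0.27 below WD.

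Coro1a, Hcls1 and Lcp1 encode proteins that sit on the filaments themselves. Coronin 1A binds actin and Arp2/3 in leukocytes and stays on phagosomes, HS1 (Hcls1) is the blood cell relative of cortactin that holds branches in place, and L-plastin (Lcp1) ties filaments into bundles. Coro1a had signals of 269, 494 and 782 in WQ mice, 522, 799 and 1113 in WD mice, and 202, 314 and 1006 in control mice (lowest, median, highest). Its highest control mouse, replicate 3, came close to the top of the WD mice, and only 1 WD mouse exceeded it. The WD mean was 1.17 ± 0.24 log2 units above control and the WQ mean 0.75 ± 0.24 below WD.

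Hcls1 had signals of 75.1, 112 and 162 in WQ mice, 116, 190.0 and 213 in WD mice, and 59.9, 83.6 and 162 in control mice (lowest, median, highest). Its top 6 WD mice exceeded every control mouse, and 5 WQ mice lay below every WD mouse. The WQ mean was 1.35-fold and the WD mean 2.01-fold the control mean, and WQ lay 0.58 ± 0.17 log2 units below WD (SE).

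Lcp1 had the largest differences of the 8, with signals of 442, 896 and 1943 in WQ mice, 1029.7, 2269.5 and 2803 in WD mice, and 398, 515 and 1185 in control mice (lowest, median, highest). Its WQ mice were spread out, with 5 below every WD mouse and 3 above every control mouse. The mean difference was 1.75 ± 0.27 log2 units for WD over control (3.36-fold), 0.85 ± 0.27 for WQ over control (1.81-fold) and -0.89 ± 0.27 for WQ over WD (0.538-fold).

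Fermt3 encodes kindlin-3, which joins talin at the tails of integrins so that blood cells can attach. Its signals were 368, 588 and 1226 in WQ mice, 481, 964 and 1200.1 in WD mice, and 266, 321 and 728 in control mice (lowest, median, highest). A single WQ mouse was above every WD mouse, the only such case among the members. WD was 1.28 ± 0.24 log2 units above control (2.43-fold) and WQ 0.51 ± 0.24 below WD (0.703-fold), the smallest gap to WD of the 8 on the probe sets used. On its other probe sets WQ minus WD was -0.67, -0.79 and -1.25 log2 units.

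Set side by side, all 8 measured members were higher in WD than in control mice, by 0.69 to 1.75 log2 units with a median of 1.25, while the median over all genes was 0.00. Each member was lower in WQ than in WD mice, by a median of 0.74 log2 units, against a median of 0.02 upward over all genes. Wipf1 was chosen for these directions, and the other members were chosen with earlier results of these data known. The directions are therefore not read as a result about the set. As a share of the difference between WD and control, what was left in WQ mice ran over 20.0% for Wipf1, 35.6% for Coro1a, 39.8% for Was, 42.6% for Hcls1, 46.1% for Nckap1l, 48.4% for Dock2, 48.8% for Lcp1 and 60.3% for Fermt3. The SE of each difference is a large part of these shares, so the order of neighbours is not resolved. It also changes with the probe set, since the second Wipf1 probe set left 66.0%, more than any of these values, and of the other Coro1a probe sets one left 65.6% and one less than the probe set used. The other Fermt3 probe sets left 34.9%, 39.8% and 44.4%, and the other Dock2 probe sets 41.1% and 74.4%.

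No member had WD and control mice wholly apart, where 0.951% of all genes did, because control replicate 3 reached into the WD range each time. Without that mouse, the other 8 control mice were below all 9 WD mice for 8 of 8 members, where 2.41% of all genes showed this. The choice of the set used the comparison of WD with control mice, so this is not read as a result about the members. WQ and WD mice overlapped for every member, where 0.0550% of all genes had WQ wholly below. WQ and control mice overlapped for every member as well, where 0.231% of all genes had WQ wholly above.

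The comparison of WQ with control mice is not named in the rule that chose the members. It is not independent of that choice, since WQ minus control is the sum of WQ minus WD and WD minus control. It shares its arrays with them, and earlier results of these data were known. All 8 members were higher in WQ mice, by 0.14 to 0.85 log2 units with a median of 0.61 (1.52-fold), against a median of 0.03 over all genes. Fermt3 passed the test, an adjusted p under 0.05 over all genes, with 0.049 by limma, and 5.00% of all genes were called higher and 1.65% lower. Lcp1 just missed it (limma adjusted p = 0.052), and Nckap1l, Dock2 and Hcls1 had adjusted p of 0.101, 0.109 and 0.132. Was, Coro1a and Wipf1 had adjusted p of 0.210, 0.334 and 0.504. By limma, 6 of the 8 had an unadjusted p under 0.05, where 3984 of all 18193 genes did. Without control replicate 3, 5 members passed, namely Fermt3 and Lcp1 (limma adjusted p = 0.013 and 0.015), Hcls1, Dock2 and Nckap1l (0.024, 0.025 and 0.038), where 7.74% of all genes were called higher. Without WQ replicate 3, 4 passed, namely Lcp1, Fermt3, Nckap1l and Dock2 (limma adjusted p = 0.015, 0.026, 0.034 and 0.036), where 6.62% of all genes were called higher. These 2 arrays lay at the end of their diet that narrows this difference, so leaving either out widens it. With any other single array left out, 0 to 2 members passed. Of all 27 fits without 1 array, 19 had no member that passed. Fermt3 passed in 12 of 41 other settings, with adjusted p between 0.013 and 0.200. Over all single-gene probe sets its limma adjusted p was 0.051 on the probe set used, and 0.102, 0.267 and 0.480 on its others.

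The members went up and down together from mouse to mouse. After the mean of each diet was subtracted, Pearson's r over the 27 arrays ran over 0.65 (Wipf1 and Coro1a) to 0.97 (Nckap1l and Lcp1) for the 28 pairs, with a median of 0.88. Without control replicate 3 the range was 0.53 to 0.97 for the same pairs, with a median of 0.86. Wipf1 was the least tied to the others, with a median r of 0.75, and Lcp1 the most, with 0.95. These points share the arrays and their normalisation, so the values are a description. WQ replicate 8 was highest of its diet for 5 members and WQ replicate 7 for the other 3, while WQ replicate 3 was lowest for 7. Among WD mice, replicate 8 was highest for 6 members and replicate 4 lowest for 7. The mean log2 signal of the 8 members was 8.39 ± 0.55 in WQ mice, 9.10 ± 0.44 in WD mice and 7.82 ± 0.46 in control mice (SD, n = 9 each).

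Macrophage markers moved with the members. The mean of 15 macrophage markers followed the mean of the members with r = 0.96 after the diet means were subtracted, and the 9 markers of all leukocytes did so with r = 0.92. The summed signal of the macrophage markers was 13891 to 30717 in WQ mice, 19942 to 40771 in WD mice and 10584 to 22529 in control mice, and none of the 15 was at the floor on all arrays. Of these markers, 13 rose in WD over control mice, 3 rose in WQ over control mice and none passed between WQ and WD mice (limma). The 10 measured T cell markers had r = 0.30 with the members, which turned to -0.11 without control replicate 3 and was 0.50 without WQ replicate 3, and 2 rose in WQ over control mice while none passed between WD and control mice. Markers of B cells and lymph node had r = 0.43 and those of NK cells 0.38, or 0.11 and 0.10 without control replicate 3 and 0.49 and 0.52 without WQ replicate 3. Of the 6 NK cell markers, 2 rose in WD over control mice, with a median difference of 0.52 log2 units, and none passed in WQ over WD mice, where the median was -0.31. The other r values were 0.15 for dendritic cells, 0.10 for platelets and megakaryocytes, -0.12 for neutrophils, -0.12 for mast cells, 0.01 for adipocytes, -0.12 for endothelium, -0.27 for smooth muscle and -0.25 for testis. Some of these moved as well. Without WQ replicate 3, r was 0.10 for neutrophils and 0.05 for mast cells. Without control replicate 3, r was 0.04 for dendritic cells, -0.06 for adipocytes and -0.21 for endothelium. The lists differ in brightness. Mean log2 signals by diet were 9.12 to 10.34 for the macrophage markers and 4.69 to 4.96 for the T cell markers. They were 3.81 to 4.14 for B cells and lymph node, 4.67 to 5.08 for NK cells, 4.67 to 4.92 for dendritic cells and 4.18 to 4.98 for mast cells. The part of signal level in these r values was not tested, so a low r of a dim list says little about its cells. The part of cell numbers in the differences of the members was not tested.

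**Figure D2:**
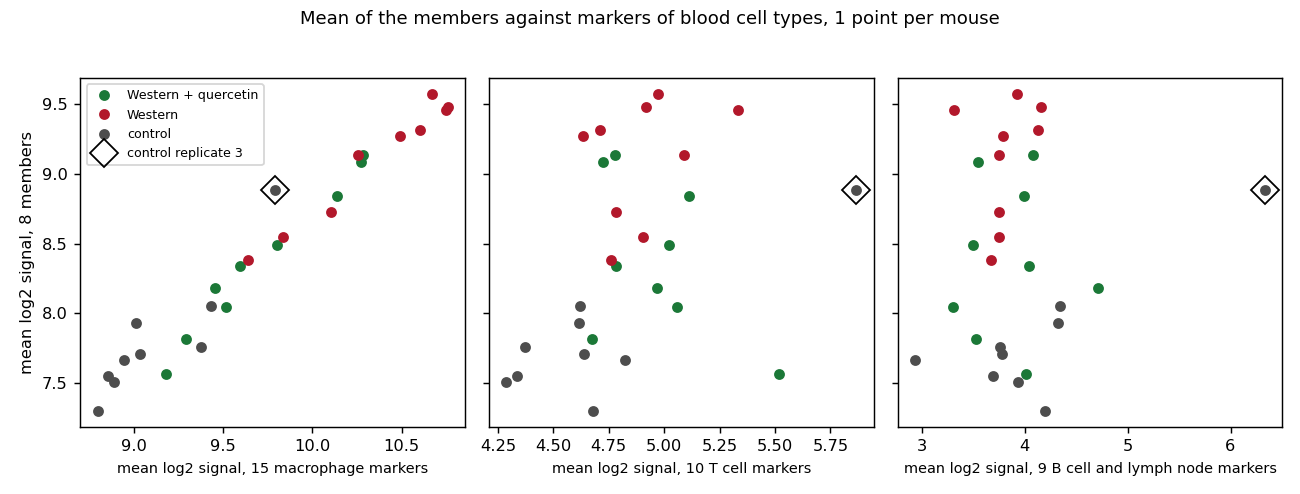
Mean log2 signal of the 8 members (y axis) against the mean log2 signal of 15 macrophage, 10 T cell, and 9 B cell and lymph node markers (x axes), 1 point per mouse, coloured by diet. The points line up along the macrophage markers (r = 0.96 within diets) and scatter along the T cell markers (r = 0.30, or -0.11 without control replicate 3), and control replicate 3, ringed, stands apart in the lymphocyte panels. The lymphocyte markers are much dimmer, with diet means of 4.69 to 4.96 (T cells) and 3.81 to 4.14 (B cells and lymph node) against 9.12 to 10.34 for macrophages.

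When each member was set against Ptprc, the pan-leukocyte surface phosphatase CD45, in the same mouse, most of the diet differences shrank. Ptprc itself rose by 1.15 ± 0.24 log2 units in WD over control mice (limma adjusted p = 0.0012). Relative to it, WD minus control was 0.02 ± 0.12 log2 units for Coro1a, 0.07 ± 0.13 for Was, 0.13 ± 0.13 for Fermt3 and -0.14 ± 0.18 for Hcls1 (SE). Dock2, Nckap1l and Lcp1 kept an excess over Ptprc of 0.35 ± 0.10, 0.46 ± 0.13 and 0.60 ± 0.10, while Wipf1 lagged behind it by -0.46 ± 0.20. The size of such an excess depends on the marker. The median rise over the 9 markers of all leukocytes was 1.55, above that of Ptprc and Dock2 (1.50) and below that of Nckap1l (1.61) and Lcp1 (1.75). Relative to the mean of the macrophage markers, WD minus control was 0.53 ± 0.09 for Lcp1 and -0.53 ± 0.13 for Wipf1, the ends of the range. In WQ minus WD, the difference relative to Ptprc was 0.05 ± 0.14 for Wipf1 and lay between -0.29 ± 0.12 (Lcp1) and 0.09 ± 0.09 (Fermt3) for the others. These ratios carry the noise of both genes and were not tested.

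Each member has a close relative that many cell types express, and none of these 9 relatives rose. Wipf2, Wasl (N-WASP), Arpc1a, Nckap1, Dock1, Coro1b, Cttn (cortactin), Pls3 (T-plastin) and Fermt2 (kindlin-2) were all measured. In WD over control mice, their differences ran over -0.32 to 0.04 log2 units with a median of -0.11, and none rose. Arpc1a fell by 0.32 ± 0.08 (SE, limma adjusted p = 0.0046) and Fermt2 fell by 0.29 ± 0.08 (adjusted p = 0.012), where 6.44% of all genes were called lower. Both remained negative in all 41 settings, but neither passed without normalisation or with a median shift, and Arpc1a did not pass without the 9 arrays with markers of other tissue. Without control replicate 6, the array with the highest testis markers, 4 relatives passed in WD over control and 2 in WQ over WD mice. In WQ over WD mice none of the 9 passed, with differences of -0.11 to 0.23, the highest for Fermt2 (0.23 ± 0.08, adjusted p = 0.17) and Nckap1 (0.21 ± 0.06, adjusted p = 0.095). None passed in WQ over control mice, where the differences were -0.19 to 0.09.

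**Figure D3:**
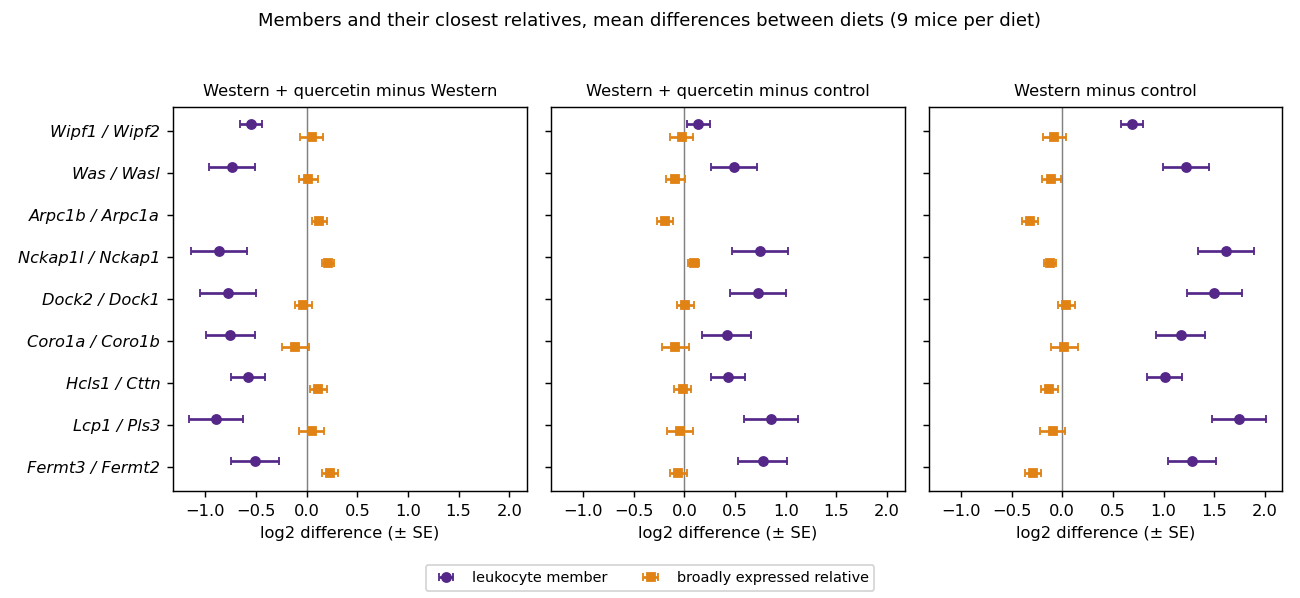
Mean log2 difference (x axis, whiskers are SE) of each member (circles) and its broadly expressed relative (squares) in 3 comparisons of diets with 9 mice each. The members lie at 0.69 to 1.75 in Western minus control, the relatives at -0.32 to 0.04, and Arpc1b has no circle because it was not measured on a probe set of its own.

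The wider actin pathway was followed through 13 lists that hold 149 genes outside the set, of which 138 were measured. In WD over control mice, 51 of them rose and 7 fell, with a median of 0.20 log2 units, or 37.0% and 5.07%, where 11.3% of all genes rose and 6.44% fell. In WQ over control mice 9 rose (6.52%) and none fell, against 5.00% and 1.65% of all genes. None of the 138 passed between WQ and WD mice, where 0.253% of all genes were called higher and 0.0770% lower. The median of the 138 was -0.12 there, and 2496 of all genes had an unadjusted p under 0.05 by limma. Without control replicates 2, 3, 4 and 6, chosen after seeing the data for their smooth muscle, lymph node or testis markers, 53 rose and 17 fell in WD over control mice. In that setting 11 rose and 5 fell in WQ over control mice, and 3 rose and 9 fell in WQ over WD mice. Leaving out control replicate 3 alone gave 22 that rose in WQ over control mice.

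Among integrins of leukocytes, the surface receptors that kindlin-3 acts on, 4 of 7 rose in WD over control mice. Itgax (CD11c) rose by 2.18 ± 0.34 log2 units (SE, limma adjusted p = 6.6e-05), Itgb2 (CD18), the partner chain of CD11 integrins, by 2.01 ± 0.33, and Itgam (CD11b) by 1.49 ± 0.23. Itgax, Itgb2 and Itga4 were also higher in WQ than in control mice, by 1.13 ± 0.34, 1.11 ± 0.33 and 0.61 ± 0.18 (adjusted p = 0.042, 0.041 and 0.035), but of 41 other settings these calls were lost in 20 for Itgax, 16 for Itgb2 and 14 for Itga4. Itgam was -0.85 ± 0.23 in WQ minus WD, with an adjusted p of 0.094. In the list of kindlins, talins and inside-out signalling, 4 of 12 rose and 1 fell, with Fyb (ADAP), an adaptor that links T cell signals to integrins, at 1.48 ± 0.26, Skap2, its partner in myeloid cells, at 0.69 ± 0.10 and the GTPase Rap1b at 0.43 ± 0.08. Rap1b was -0.29 ± 0.08 in WQ minus WD (adjusted p = 0.081).

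Rac2, the Rac of blood cells that Dock2 loads, rose by 1.06 ± 0.22 log2 units in WD over control mice (limma adjusted p = 0.0014). Arhgap25, a Rac GTPase-activating protein of phagocytes, rose by 2.01 ± 0.30 and Arhgap30 by 1.19 ± 0.22. Vav3, an exchange factor, was -0.57 ± 0.15 in WQ minus WD (adjusted p = 0.082). Of the DOCK and ELMO proteins, which act with Rac and Cdc42, 4 of 12 rose, including Dock8, an exchange factor for Cdc42 in immune cells, at 1.37 ± 0.30, Dock10 at 0.55 ± 0.10 and Elmo2 at 0.50 ± 0.11.

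The subunits of the branching machinery itself were followed too. In the Arp2/3 complex, 4 of 6 measured subunits rose in WD over control mice, with Arpc5 at 0.49 ± 0.11 log2 units, Actr3 at 0.40 ± 0.10 and Arpc4 at 0.37 ± 0.10, and Arpc1a fell as given above. Arpc2 was -0.25 ± 0.07 in WQ minus WD (limma adjusted p = 0.11). In the WAVE complex, Abi1 (0.29 ± 0.08) and Brk1 (0.16 ± 0.06) rose and Abi2 fell by 0.34 ± 0.10, with 6 of 9 not passing. None of 6 WASP and WIP relatives and none of 3 cortactin relatives passed in any comparison. Washc1, in the first list, had the smallest p between WQ and WD, at 0.09 ± 0.07 (adjusted p = 0.64). Coro1c was the only 1 of 6 other coronins to rise in WD over control mice (0.52 ± 0.16), and Coro6 was 0.73 ± 0.18 in WQ minus WD (adjusted p = 0.065).

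Capg, a capping protein of macrophages, rose by 1.89 ± 0.31 log2 units, profilin (Pfn1) by 0.56 ± 0.09 and Gmfb, which loosens branches, by 0.46 ± 0.07 (limma adjusted p = 1.2e-04, 1.0e-04 and 9.0e-05), among 9 of 23 turnover genes that rose and 2 that fell. Pfn1 came nearest to the threshold in WQ minus WD, at -0.39 ± 0.09 (adjusted p = 0.053). Of 16 podosome and migration adaptors, 8 rose and 2 fell, with the myosin Myo1f of leukocytes at 2.30 ± 0.40, Arhgap9 at 1.63 ± 0.21 and Evl, which lengthens filaments, at 1.48 ± 0.26. Arhgap9 was also higher in WQ than in control mice (0.96 ± 0.21, adjusted p = 0.0065), and Evl was -0.90 ± 0.26 in WQ minus WD (adjusted p = 0.11). Only Fgd2 among 7 other bundling genes rose (0.68 ± 0.21), and it encodes a Cdc42 exchange factor rather than a bundler. Of 9 formins, Diaph1 rose (0.32 ± 0.10), and Diaph2 was 0.19 ± 0.10 in WQ minus WD (adjusted p = 0.38). Of the 27 genes named here as changed in WD over control mice, 16 passed in every setting tried, and Brk1 failed in 28 of 41.

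**Figure D4:**
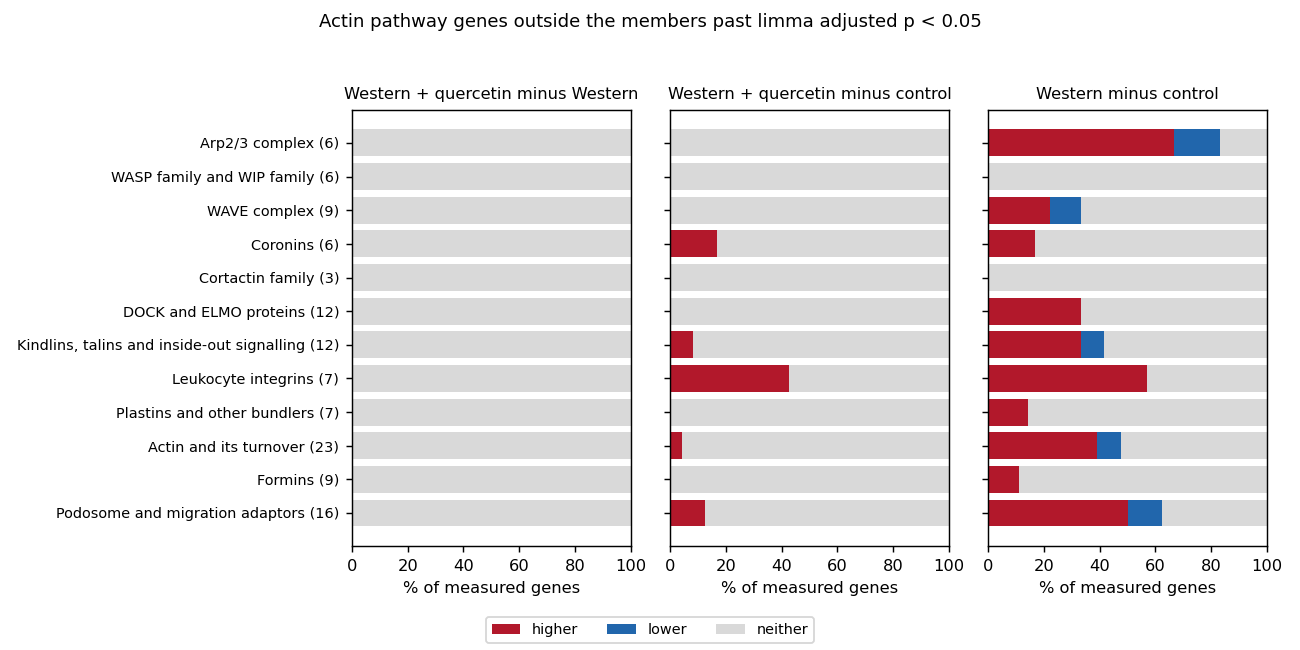
Share of the measured genes of 12 actin pathway lists outside the set (x axis, %; y axis, list with its number of genes) that were higher, lower or neither by limma (adjusted p under 0.05) in 3 comparisons. In Western minus control, 4 of 7 integrins are higher, and in Western diet with quercetin minus Western none of these genes passes.

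The genes whose signal was most like that of Wipf1 were sought among 9088 genes above the median mean signal. Over the 27 arrays they were Rab8b (r = 0.90), Rgs1 (0.90), Evl (0.90), Rap1b (0.90) and Sdcbp (0.90). With the diet means subtracted, they were Rgs1 (0.85), the Arp2/3 subunit Actr3 (0.83) and Cxcl16 (0.83). For the other members the values were higher. Lcp1 was closest to Cd68, Adam8 and Tyrobp (0.99, 0.98 and 0.98), Nckap1l to Cd68, Clec7a and Cd300lb (0.97, 0.97 and 0.96), and Was to Cd300lb, Cd300ld and Slc11a1 (0.96 each). Dock2 was closest to Slc15a3, Fxyd5 and Clec7a (0.97, 0.96 and 0.95), and Fermt3 to Fxyd5, Slc11a1 and Cd300lb (0.97, 0.97 and 0.96). Coro1a had Slamf9, Alox5ap and Evi2a (0.94, 0.93 and 0.93), and Hcls1 had Nrros, Csf2ra and Atp6v1b2 (0.93, 0.91 and 0.90).

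All 10 other single-gene probe sets of the members had differences of the same sign as the one used in each comparison. The second Wipf1 probe set was 0.80 ± 0.12 log2 units higher in WD than in control mice, but only 0.27 ± 0.12 lower in WQ than in WD mice (SE). On it, WQ was 0.53 ± 0.12 above control (limma adjusted p = 0.0078 over all single-gene probe sets), against 0.14 ± 0.11 (0.510) on the probe set used. Dock2 read 0.77 ± 0.15 for WD over control on its probe set with the lowest value, with -0.20 ± 0.15 for WQ over WD and 0.58 ± 0.15 for WQ over control (adjusted p = 0.024). The dimmest Coro1a probe set read 0.68 ± 0.43 for WD over control and 0.08 ± 0.43 for WQ over control. Fermt3 read 1.92 ± 0.50 for WD over control on its probe set with the highest value, with -1.25 ± 0.50 for WQ over WD. There WQ over control was 0.67 ± 0.50 and did not pass (adjusted p = 0.480). The second Lcp1 probe set gave 1.56 ± 0.20 for WD over control and 0.78 ± 0.20 for WQ over control (adjusted p = 0.024). Hcls1 and Was have 1 single-gene probe set each.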

How the data were processed

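Total RNA of EAT from 27 mice was labelled and hybridised, 1 array per mouse, and the authors made the deposited signal intensity values with MAS5 and GeneSpring. The extraction text in the labels speaks of liver, while the tissue field says EAT. The 64 control probe sets of 45101 were left out, intensities were quantile normalised between arrays, values under 1 were set to 1, and log2 was taken. Symbols were updated through RefSeq (GRCm38.p6). Of the probe sets, 34945 had 1 gene and 932 several. Per gene, the single-gene probe set with the highest mean was used, which gave 18193 genes. Differences were fitted with limma 3.58.1 (R 4.3.3), 1 mean per diet over 27 arrays, with a variance trend and Benjamini-Hochberg adjustment over all genes, and tested on simulated data. The test of the study's methods, Welch's analysis of variance with Tukey's test, was an alternative. The number of arrays limits the precision. No level of one probe set was set against another's.

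The members and lists were chosen with earlier results of these data known. Named genes were the members, their relatives, up to 3 genes per list with the largest difference past the threshold in WD over control, up to 2 in WQ over WD (else the smallest p), and the genes with the highest r. The counts of 1 pathway list are not reported here. Itga4 was named after its values were seen.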

Additional observations from a re-analysis of the deposited data

Results flagged for a closer look

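A single array stood apart from the other 8 of its diet in 11 of the 153 sets of 9 signals checked, of which chance alone sets apart about 1 in 20. Control replicate 3 was highest for Fermt3, with a log2 signal of 9.51 against 8.66 in the next control mouse, and likewise for Rac2 (8.14), Arhgap30 (8.71), Arhgap9 (7.29) and Evl (8.83). Its B cell and lymph node markers averaged 6.33 on the log2 scale. Control replicate 6, with testis markers at 12.65, was lowest for Dock1 (8.21), Nckap1 (11.24), Fermt2 (10.61) and Diaph1 (8.68). Western replicate 2 was lowest for Washc1 (7.52) and Western replicate 4 for Fgd2 (5.32). The part of the other tissue in these signals was not tested.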

How the results depend on the processing

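The replicate numbers shared by the diets did not pair the mice, since 4 of 27 correlations of same-numbered arrays passed 0.1 (range -0.33 to 0.18) and 2 arrays correlated best with their own number. With the replicate block, 0 members passed in WQ over WD and 1 in WQ over control. In WD over control, which the choice of the set used, the count was 8 of 8 members in every setting, and nothing is read from it. In the main fit 11.3% of all genes were called higher there. The median difference of the members moved by less than the spread between mice in all 3 comparisons. For WQ over WD, which the choice of the set also used, the count was 1 (Wipf1), where 0.0770% of all genes were called lower in the main fit. It was 0 without normalisation, with a median shift, with the mean of all probe sets, without the variance trend and without the 9 arrays apart. It was 3 with 2 diets in the fit or without control replicates 2, 3, 4 and 6 together, and 7 with array weights or the test of the study's methods. It was 0 to 1 when each array was left out, with 0 in 9 of 27 such fits (WD replicates 1, 3, 7 and 8, WQ replicates 1 to 5). For WQ over control it was 0 without normalisation, with a median shift, with 32 as the floor, with 16 added to each signal, with probe sets in place of genes, no variance trend, 2 diets in the fit, or without the 9 arrays or the 4 controls. It was 2 with array weights or genes above the median mean signal, 3 with the test of the methods, and 0 to 5 leaving out each array (5 without control replicate 3). Outside the main fit, the share of all genes called was counted only for WQ over control without control replicate 3 or WQ replicate 3. In settings without such a share nothing is read from the counts of members, since calls of other genes moved as well.

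Among the 138 pathway genes, WD over control gave 30 higher and 3 lower without normalisation, 1 lower with a median shift, 17 lower with array weights or without the 4 controls, 4 with the test of the methods, 12 without the 9 arrays, and 7 to 15 leaving out each array (15 without control replicate 6). WQ over control gave 1 higher without normalisation, with a median shift or 2 diets in the fit, 5 with the floor of 32, 15 above the median signal, 3 with all probe sets, 4 without the trend, 14 with array weights, 18 with the test of the methods and 3 to 22 leaving out each array. It gave 2 lower above the median signal, with all probe sets or without the 9 arrays, 5 with array weights or without the 4 controls, and 0 to 5 leaving out each array. WQ over WD gave 1 higher and 3 lower above the median signal, 5 and 29 with array weights, 4 and 9 with 2 diets in the fit, 3 and 24 with the test of the methods, 3 and 9 without the 4 controls, 1 lower with 16 added, and 0 to 3 higher and 0 to 5 lower leaving out each array.

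Of the 9 relatives, 0 passed in WD over control without normalisation or with a median shift, 4 with array weights or without the 4 controls, and 2 to 4 leaving out each array. In WQ over control 1 passed without the 4 controls. In WQ over WD, 1 passed above the median signal, 2 with array weights, 2 diets in the fit, the test of the methods or without the 4 controls, and 0 to 2 leaving out each array. The cause of these moves was not tested.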
